A study of Homo sapiens with 6 samples.

Results

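The transcripts described here come from 4 genes of the canonical Wnt pathway: LRP6, APC, CTNNB1 and TCF7L2. Their HuR sites were taken as every interval on the strand of the gene that overlapped its span on hg19. The combined list of the 3 HuR replicates held 610 such sites out of 658853, or 0.0926%, and replicates 1, 2 and 3 held 132, 374 and 507. The spans were chr12:12268961-12419811 on the minus strand for LRP6, chr5:112043202-112181936 on the plus strand for APC, chr3:41240942-41281939 on the plus strand for CTNNB1 and chr10:114710009-114927436 on the plus strand for TCF7L2. Their lengths were 151, 139, 41.0 and 217 kb.

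In the canonical Wnt pathway a Wnt ligand brings a Frizzled receptor and its co-receptor LRP6 together at the cell surface. APC is a scaffold of the cytoplasmic complex that marks beta-catenin, the product of CTNNB1, for degradation, and the ligand signal stops that complex. Beta-catenin then enters the nucleus and activates genes with DNA-binding factors such as TCF7L2. HuR, the ELAVL1 protein, binds U-rich and AU-rich stretches of RNA, often in introns and 3' untranslated regions.

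The study used HEK293, an established human embryonic kidney line, with 3 immunoprecipitations of anti-HuR antibody 3A2 and 3 control immunoprecipitations of normal mouse serum antibodies. In DO-RIP-seq, lysate is digested with micrococcal nuclease before the immunoprecipitation, and here fragments of 25 to 70 nt were cut from a gel and sequenced. Digested lysates were pooled before being divided over the antibodies, so the spread over the 3 HuR replicates may be technical only. Separate values of the control libraries were not analysed here. Each list gives intervals with the authors' LOD score, all above 0, on a scale not given in the sources used here. Scores are therefore given as a percentile within their own list. Read depth is unknown, and the lists hold 186157, 405048 and 550681 sites in replicates 1, 2 and 3. More copies of a transcript and more HuR on each copy cannot be told apart in these lists.

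CTNNB1 had the most HuR sites for its length in every replicate, and TCF7L2 had the lowest mean. The CTNNB1 span held 23 sites in replicate 1, 68 in replicate 2 and 79 in replicate 3, which is 0.561, 1.66 and 1.93 sites per kb. Its mean was 1.38 ± 0.724 sites per kb (SD, n = 3). Replicate 1 was low in every gene, as in the whole list, so genes are compared within a replicate.

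APC, which has a span more than 3 times as long as that of CTNNB1, held 20, 86 and 120 sites in replicates 1, 2 and 3. That is 0.144, 0.620 and 0.865 sites per kb, a mean of 0.543 ± 0.366 (SD, n = 3). LRP6 held 56, 146 and 195 sites, or 0.371, 0.968 and 1.29 per kb, with a mean of 0.877 ± 0.467 (SD, n = 3). TCF7L2 held 33, 74 and 113 sites, or 0.152, 0.340 and 0.520 per kb, with a mean of 0.337 ± 0.184 (SD, n = 3).

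CTNNB1 was denser than each of the other genes in every replicate: 3.89, 2.68 and 2.23 times as dense as APC, 1.51, 1.71 and 1.49 times as dense as LRP6, and 3.70, 4.87 and 3.71 times as dense as TCF7L2. APC was sparser than LRP6 in every replicate, at 0.388, 0.640 and 0.669 times its density. LRP6 was 2.45, 2.84 and 2.49 times as dense as TCF7L2. APC and TCF7L2 kept no fixed order, with APC at 0.95 times the TCF7L2 density in replicate 1 and at 1.82 and 1.66 times in replicates 2 and 3. With 3 replicates, the smallest two-sided p that exact sign flipping allows is 0.25, so these 6 comparisons are given by direction and size without a p.

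**Figure D1:**
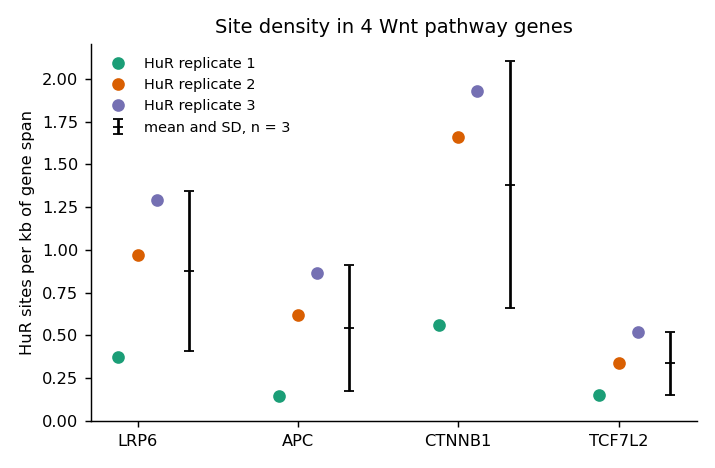
HuR sites per kb of gene span (y axis) in LRP6, APC, CTNNB1 and TCF7L2 (x axis), with a point for each HuR replicate and the mean with SD (n = 3) as a black bar. CTNNB1 lies highest within each replicate, at 0.561, 1.66 and 1.93 sites per kb.

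By the median of their 10-kb windows, CTNNB1, LRP6 and APC lay above the middle of the combined list and TCF7L2 lay near it. Among 97321 strand-specific 10-kb windows with at least 1 combined site, the median window held 4 sites. These were not limited to windows wholly inside a gene, as those of the 4 genes were, so the percentiles compare unlike sets. The 3 windows wholly inside CTNNB1 held 17 to 26 sites, with a median of 22 at percentile 94.5 of all such windows. The 14 windows inside LRP6 had a median of 13, at percentile 82.8, and their fullest held 34. The 13 windows inside APC had a median of 10, at percentile 75.9. The 20 windows inside TCF7L2 ran from 0 to 19 sites, with a median of 4.

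The sites were almost all on the strand of the gene. LRP6, APC and CTNNB1 had no opposite-strand site within their spans in any of the 5 lists. In TCF7L2, 1 opposite-strand site was listed in replicate 3, at chr10:114926061-114926085, with a score of 4.56 at percentile 69.8, and the same interval was in the combined list. It overlaps by a few bases the strongest TCF7L2 site of the last 5 kb, described further on. Beyond the spans the calls thinned out. Within 5 kb after the end, LRP6 had 0, 0 and 65 called bases in replicates 1, 2 and 3, and APC had 0, 40 and 45. CTNNB1 had 0, 51 and 56, and TCF7L2 had none in the replicates but 25 in the combined list. Within 5 kb before the start, TCF7L2 had 0, 45 and 80 called bases in replicates 1, 2 and 3 and the other genes had none. On GRCh38, GENCODE places the same-strand genes AC008575.1 and RNU6-482P across APC and RPS15AP30 across TCF7L2, so some sites there could come from those transcripts. On the opposite strand it places ULK4 across CTNNB1, CBX3P3 across APC and AL158212.2 across TCF7L2. Across LRP6 it places BCL2L14, AC007537.2, RNU6-545P and AC007621.1 on that strand. The hg19 positions of these genes were not set beside the sites, so which transcript a site came from was not tested.

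Recurrence between replicates was close to that of the whole list in 3 of the genes and lower in APC. Whether the 95% interval of APC held the share of all sites depended on how much overlap was asked for. Of 226 combined LRP6 sites, 51 overlapped a site in all 3 replicate lists by at least 1 nt, or 22.6% (95% Wilson interval 17.6 to 28.4, counting error only), against 22.9% of all combined sites. TCF7L2 had 30 of 137, or 21.9% (15.8 to 29.5), and CTNNB1 20 of 93, or 21.5% (14.4 to 30.9). These shares are near the background and show nothing particular to the genes. APC had 19 of 154, or 12.3% (8.04 to 18.5), with an upper bound below the 22.9% of all combined sites. With at least 50% of each interval shared, 13 APC sites were in all 3 lists, or 8.44% (5.00 to 13.9). That interval holds the 13.4% of all combined sites. The share fell in the other genes too, to 11.1% in LRP6, 14.0% in CTNNB1 and 16.1% in TCF7L2, and APC stayed the lowest. At 1 nt of overlap, 48 APC sites, or 31.2%, were in exactly 2 replicate lists (30.0% of all), 65, or 42.2%, in exactly 1 (36.2% of all) and 22, or 14.3%, in none (11.0% of all). CTNNB1 had 37 sites, or 39.8%, in exactly 2 lists and 7, or 7.53%, in none. These shares have no interval, so their differences from those of APC are not read as particular to a gene.

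The APC share was far below that of all combined sites for replicate 1 and nearer to it for replicates 2 and 3. No interval is given for these shares, so the small differences in replicates 2 and 3 are not read as particular to APC. A replicate 1 site lay under 13.0% of the APC sites, against 25.4% of all combined sites, while the shares were 23.5% in LRP6, 21.5% in CTNNB1 and 22.6% in TCF7L2. Replicate 2 covered 53.2% of the APC sites, against 59.2% of all, with 53.3% in TCF7L2, 62.4% in LRP6 and 71.0% in CTNNB1, so the replicate 2 share was as low in TCF7L2. Replicate 3 covered 75.3% of the APC sites, against 80.2% of all, with 80.3% in TCF7L2, 82.7% in LRP6 and 82.8% in CTNNB1. In the other direction, 19 of the 20 replicate 1 sites in APC were found in both other replicates, or 95% against 89.1% of all replicate 1 sites. From replicates 2 and 3, the shares of APC sites found in both other lists were 22.1% and 15.8%, against 37.8% and 28.4% of all sites of those lists. Without replicate 1, 42.9% of the combined APC sites were found in both remaining lists, against 51.2% of all combined sites, 54.9% in LRP6, 61.3% in CTNNB1 and 46.0% in TCF7L2.

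The authors' p filter gave the same dependence in APC. It kept 65 of the 154 APC sites, or 42.2% (95% Wilson interval 34.7 to 50.1), against 52.3% of all combined sites. With at least 50% of each interval shared it kept 55, or 35.7% (28.6 to 43.5), against 41.7% of all, which lies inside the interval. It kept 124 LRP6 sites, or 54.9% (48.4 to 61.2), 55 CTNNB1 sites, or 59.1% (49.0 to 68.6), and 76 TCF7L2 sites, or 55.5% (47.1 to 63.5). Of the sites found in all 3 replicates it kept 50 of 51 in LRP6, 18 of 19 in APC, 19 of 20 in CTNNB1 and 30 of 30 in TCF7L2. The share kept among all recurrent sites of the list was not analysed here, so these counts are not read as particular to the genes.

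Counted over bases that recurred, TCF7L2 stood above APC, while by sites its mean density was below that of APC. Bases called in all 3 replicates made up 2.67% of the CTNNB1 span (1095 nt), 1.47% of LRP6 (2215 nt), 0.901% of TCF7L2 (1960 nt) and 0.595% of APC (825 nt). Without replicate 1 the bases called in both remaining lists made up 8.52%, 5.07%, 1.97% and 2.51% of these spans in the same order of genes, so the order of TCF7L2 and APC depended on replicate 1. No opposite-strand base was called in all 3 replicates in any of the 4 spans. Of the bases called in any replicate, 26.4% were called in all 3 in TCF7L2, against 18.9% in CTNNB1, 16.5% in LRP6 and 11.1% in APC.

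Called bases were denser at the 3' end than in the rest of the span in all 4 genes and all 3 replicates. In TCF7L2, 15.6%, 30.6% and 28.6% of the last 5 kb was called in replicates 1, 2 and 3, against 0.636%, 1.75% and 2.36% of the rest. The ratio was 24.5, 17.5 and 12.1, a mean of 18.1 ± 6.24 (SD, n = 3). In LRP6, 13.9%, 44.1% and 40% of the last 5 kb was called, against 1.27%, 4.89% and 6.62% of the rest, a mean ratio of 8.67 ± 2.48 (SD, n = 3).

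By the percent of the last 5 kb called, and by its ratio to the rest, APC and CTNNB1 stood below LRP6 and TCF7L2. In APC, 3.90%, 13.4% and 10.5% of the last 5 kb was called, against 0.535%, 3.26% and 4.00% of the rest, a mean ratio of 4.68 ± 2.39 (SD, n = 3). In CTNNB1, 9.40%, 21.1% and 18.1% of the last 5 kb was called, against 2.00%, 9.57% and 10.8% of the rest. The mean ratio was 2.86 ± 1.61 (SD, n = 3). The rest of the span was called more densely in CTNNB1 than in the other genes in every replicate. As a share of all called bases, the last 5 kb held 29.3% ± 7.23 in TCF7L2 and 27.3% ± 10.8 in CTNNB1. It held 22.7% ± 5.14 in LRP6 and 14.6% ± 6.34 in APC (means with SD, n = 3). CTNNB1 stood above LRP6 by this share in replicates 1 and 3 only, and its span is the shortest of the 4. The ratio was higher in TCF7L2 than in LRP6, in LRP6 than in APC and in APC than in CTNNB1 in each of the 3 replicates, and in every gene it was highest in replicate 1 and lowest in replicate 3. How many other genes share this rise was not analysed here, because no gene annotation on hg19 was at hand.

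Away from the end the genes differed in where their sites lay. In TCF7L2 the called bases were concentrated at the 3' end, with a smaller excess at the start. Its last 10% held 69.7%, 62.5% and 51.5% of its called bases in replicates 1, 2 and 3. Its first 10% held 19.0%, 14.2% and 12.2%, where an even spread would put 10%. The stretch from 10% to 90% of the span, most of its length, held 11.3%, 23.3% and 36.3%, where an even spread would put 80%. By number, 69 of the 137 combined TCF7L2 sites had their midpoint in that stretch, at 0.397 sites per kb, against 49 in the last 10%, at 2.25 per kb, and 19 in the first 10%, at 0.874 per kb. The longest TCF7L2 stretch with no combined site was 12900 nt, and 54975 nt ran without a base called in all 3 replicates.

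LRP6 was sparse at the start and dense at the end: the first 10% held 3.54%, 1.02% and 1.93% of the called bases and the last 10% held 51.3%, 34.6% and 28.0%. APC had 20.3%, 31.7% and 28.1% of its called bases between 40% and 60% of the span, where an even spread would put 20%, so this stretch was even in replicate 1 and above even in replicates 2 and 3. CTNNB1 had 15.5%, 22.8% and 26.1% in the same stretch. The last 20% of APC held 58.8%, 53.0% and 40.1%. The first 5 kb of the APC span had no called base in any list, against 315, 430 and 425 nt in TCF7L2 and 170, 630 and 715 nt in CTNNB1 in replicates 1, 2 and 3. CTNNB1 had 51.3%, 65.7% and 70.9% of its called bases between 10% and 90% of the span.

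**Figure D2:**
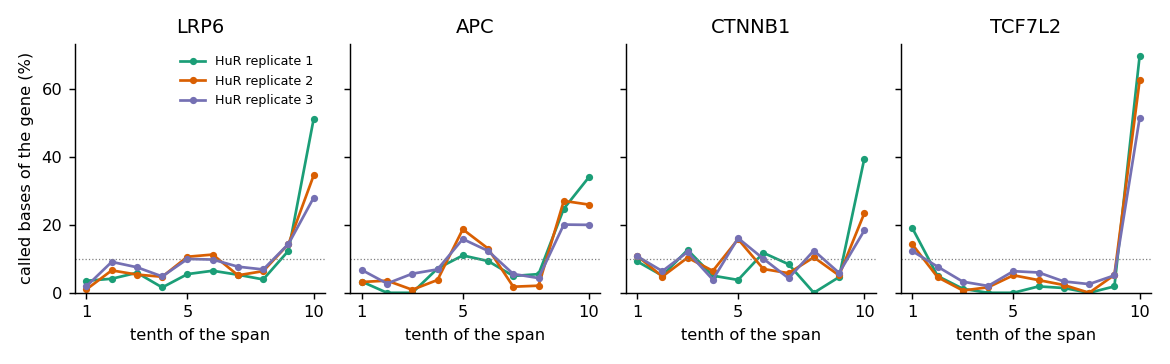
Share of each gene's called bases (y axis, percent) in each of 10 equal stretches of its span (x axis, 1 at the start and 10 at the end along transcription), with a line for each HuR replicate. The dotted line at 10% is an even spread. TCF7L2 reaches 69.7% in its last 10% in replicate 1, and the last 10% is the highest stretch of LRP6, CTNNB1 and TCF7L2 in every replicate.

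LRP6, the co-receptor, carried a run of strong sites in its last 9 kb. The highest combined score, 16.6, was at chr12:12277286-12277375, 8.32 kb before the end of the span. In the replicate lists it stood at percentiles 96.4, 92.6 and 94.1, averaging 94.4 ± 1.90 (SD, n = 3). The site at chr12:12272761-12272935, 3.80 kb before the end, had a combined score of 16.5 and replicate percentiles of 95.8, 99 and 97.5. This site was the most even of the 5 leading LRP6 sites across replicates, with an SD of 1.59 percentile points.

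Not every leading LRP6 site was strong throughout. At chr12:12275761-12275820 the combined score was 16.2, with percentiles of 98.4 in replicate 1, 87.6 in replicate 2 and 46.4 in replicate 3. At chr12:12275931-12276105 replicate 1 stood lowest, at percentile 49.0, with 92.2 and 88.0 in replicates 2 and 3. The widest LRP6 site, chr12:12272981-12273300, spanned 320 nt. The kilobase of LRP6 with the most bases called in all 3 replicates, chr12:12275112-12276111, had 305 such bases.

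APC, the scaffold of the beta-catenin destruction complex, had few strong sites, and none of its 5 leading recurrent ones lay in the last 5 kb. Its highest combined score, 16.0, was at chr5:112170251-112170310, 11.6 kb before the end, with replicate percentiles of 82.0, 94.8 and 83.4. The next, 15 at chr5:112106106-112106185, lay 62.9 kb from the start, with percentiles of 76.6, 96.9 and 84.5. The sites at chr5:112160376-112160420 and chr5:112158281-112158365 stood at percentiles 18.6 and 29.1 in replicate 1 but at 84.1 and 78.1 in replicate 2 and at 90.5 and 97.5 in replicate 3.

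The end of APC held its densest kilobase of recurrent calls all the same. In chr5:112179802-112180801, 195 bases were called in all 3 replicates. The best score of its last 5 kb was 11.2 at chr5:112180846-112180970, a site of 125 nt found in replicates 2 and 3, at percentiles 76.4 and 77.8, and not listed in replicate 1. The longest APC stretch with no base called in all 3 replicates was 36945 nt and began 8594 nt from the start.

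CTNNB1, which encodes beta-catenin, had its strongest sites spread over the span. The highest combined score, 16.2 at chr3:41251451-41251550, lay 10.5 kb from the start, with replicate percentiles of 72.0, 97.5 and 97.5. Scores of 15.9 at chr3:41254701-41254785 and 15 at chr3:41245551-41245635 followed, at 13.8 and 4.61 kb from the start. In replicate 1 these sites stood at percentiles 73.7 and 87.2, below their values of 89.2 and 89.1 in replicate 2 and of 98.8 and 94.7 in replicate 3.

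At the end of CTNNB1 the strongest site stood among mostly weaker ones. The next highest score of the last 5 kb was 11.6, at percentile 88.1 of the combined list. That site lay 38439 nt from the start and was also found in all 3 replicates. The site at chr3:41281366-41281625 was the widest of the gene, at 260 nt, and lay 0.314 kb before the end of the span. Its combined score was 14.3 and its percentiles in replicates 1, 2 and 3 were 89.5, 93.5 and 90.9, averaging 91.3 ± 2.04 (SD, n = 3). The last kilobase had 325 bases called in all 3 replicates, against 30 in the kilobase before it. A site at chr3:41258296-41258370 reached a combined score of 14.6 without a replicate 1 site, at percentile 91.7 in replicate 2 and 99.4 in replicate 3.

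TCF7L2, the DNA-binding partner of beta-catenin, carried the highest scores of the 4 genes. Its leading combined score was 19.0 at chr10:114914706-114914775, 12.7 kb before the end of the span, with replicate percentiles of 97.8, 99.8 and 96.0. At chr10:114919111-114919235 the score was 18.8, with percentiles of 98.6, 99.5 and 95.4, and at chr10:114919381-114919500 it was 17.5, with percentiles of 95.8, 97.0 and 96.9. These sites were high in all 3 replicates. At chr10:114915831-114915905, also with a combined score of 17.5, replicate 3 stood apart at percentile 69.8 against 98.7 and 99.4 in replicates 1 and 2.

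Of the TCF7L2 sites named here, the highest mean replicate percentile was not at the leading combined score. At chr10:114926081-114926280, 1.16 kb before the end, the replicate scores were 12.4, 9.29 and 8.30, at percentiles 99.7, 99.5 and 99.8, a mean of 99.7 ± 0.187 (SD, n = 3). The p-filtered score there was 29.3, at percentile 99.97 of that list, while the unfiltered combined score was 15.7, at percentile 97.6. It adjoins the widest TCF7L2 site, chr10:114926291-114926685, of 395 nt. In chr10:114925709-114926708, which holds both, 500 of 1000 bases were called in all 3 replicates, the densest kilobase of the 4 genes. A strong site also lay far from the end, 32.8 kb from the start at chr10:114742851-114742930, with a combined score of 17.2 and percentiles of 96.5, 91.1 and 95.7.

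**Figure D3:**
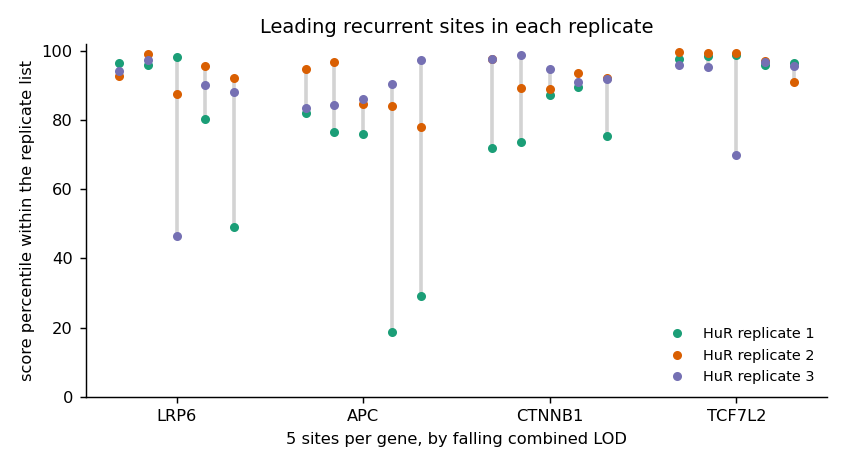
Score percentile within the replicate list (y axis, 100 at the top) of the 5 recurrent sites with the highest combined score in each gene (x axis), with a point for each HuR replicate and a grey line for their range. TCF7L2 sites sit between 91.1 and 99.8, apart from a replicate 3 value of 69.8, while 2 APC sites fall to 18.6 and 29.1 in replicate 1.

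The share of high-scoring sites followed the same contrast between genes. Sites at or above percentile 90 of their list, 10.0% of all sites by definition, made up 27.3%, 13.5% and 13.3% of the TCF7L2 sites in replicates 1, 2 and 3 (mean 18.0% ± 8.01, SD, n = 3). In APC they made up 0%, 2.33% and 1.67% (mean 1.33% ± 1.20). LRP6 had 12.5%, 6.16% and 6.67% and CTNNB1 had 0%, 7.35% and 12.7%. The TCF7L2 share lay above and the APC share below 10.0% in all 3 replicates, and LRP6 and CTNNB1 fell on both sides. In the combined list this level was passed by 19 of 137 TCF7L2 sites (13.9%), 11 of 93 CTNNB1 sites (11.8%), 16 of 226 LRP6 sites (7.08%) and 5 of 154 APC sites (3.25%). Of these, 10 in TCF7L2, 4 in CTNNB1, 8 in LRP6 and 1 in APC lay in the last 15 kb. That window held 37 of all 137 TCF7L2 sites, 38 of 93 in CTNNB1, 44 of 226 in LRP6 and 38 of 154 in APC. In CTNNB1 and APC the high-scoring sites were thus no more frequent there than sites in general.

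The typical site, unlike the best, was ordinary in all 4 genes. The median percentile of the sites averaged 48.7 ± 4.50 in LRP6, 45.7 ± 1.45 in APC, 48.2 ± 8.89 in CTNNB1 and 50.5 ± 5.79 in TCF7L2 (SD, n = 3), where 50 is the middle of a list. No 2 genes held the same order in all 3 replicates on this measure. Median widths were 45 to 65 nt in CTNNB1, 45 to 55 nt in LRP6, 40 to 55 nt in APC and 45 to 55 nt in TCF7L2, against 45, 55 and 50 nt over all sites of replicates 1, 2 and 3.

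Recurrent sites near the 3' end scored lower than recurrent sites elsewhere in 4 of 4 genes. Among combined sites found in all 3 replicates, those in the last 5 kb had a median percentile of 19.3 in CTNNB1 (7 sites), 23.7 in APC (3 sites), 42.2 in LRP6 (13 sites) and 80.0 in TCF7L2 (7 sites). In the rest of the span the medians were 92.8 (13 sites), 86.1 (16 sites), 85.3 (38 sites) and 93.5 (23 sites) in the same order of genes, against 86.7 over all recurrent sites of the list. Of the 30 recurrent sites in the last 5 kb, 9 had a score below percentile 25, and of the 90 in the rest of the spans 0 did, against 4.52% of all recurrent sites. The lowest recurrent score outside the last 5 kb was at percentile 53.4.

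These weak recurrent sites were spread over 3 of the genes. CTNNB1 had 4 of the 9, LRP6 had 3 and APC had 2, while the lowest TCF7L2 value was percentile 38.8. Recurrence itself was higher at the end, with 41.2% of the CTNNB1 sites in the last 5 kb found in all 3 replicates, against 17.1% in the rest of the span. The shares were 25.0% against 11.3% in APC, 52.0% against 18.9% in LRP6 and 50% against 18.7% in TCF7L2. The end shares rest on 17 sites in CTNNB1, 12 in APC, 25 in LRP6 and 14 in TCF7L2, without an interval. Of all combined sites 22.9% were in all 3 lists, so the APC share at the end was near that of all sites. The end sites were also wider in 3 genes, with median widths of recurrent sites of 135 against 70 nt in LRP6, 130 against 77.5 nt in APC and 175 against 75 nt in TCF7L2, but 70 against 85 nt in CTNNB1. The division into score classes was chosen after the values were seen, and whether width or crowding has a part in it was not tested.

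**Figure D4:**
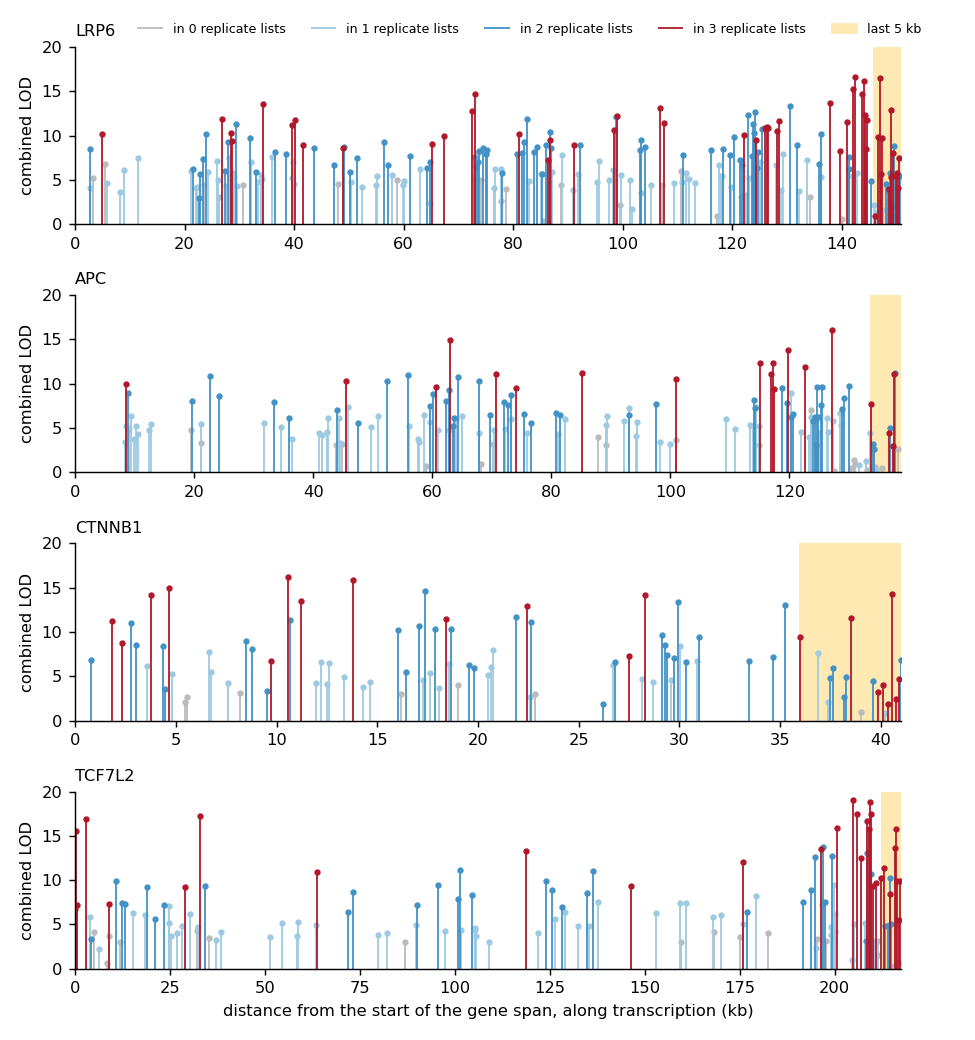
Combined LOD score (y axis) of every combined site against its distance from the start of the gene span along transcription (x axis, kb) in LRP6, APC, CTNNB1 and TCF7L2, coloured by the number of replicate lists that hold the site, with the last 5 kb shaded. TCF7L2 shows its tallest recurrent sites, up to 19.0, in a group before and into the shaded end. In its shaded end CTNNB1 shows weak recurrent sites beside taller ones of 14.3 and 11.6.

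Scores of the same site were correlated between replicates within these genes. Across the 129 sites of the 4 genes shared by replicates 1 and 2, the scores had a Pearson r of 0.706 and a Spearman rho of 0.674. For replicates 1 and 3, with 125 shared sites, r was 0.605 and rho 0.564. For replicates 2 and 3, with 318 shared sites, r was 0.696 and rho 0.678. LRP6 had the lowest r of the 4 genes in each pair of replicates, at 0.590 for replicates 1 and 2 (53 sites), 0.442 for 1 and 3 (53 sites) and 0.558 for 2 and 3 (127 sites), while by rho APC was lowest for replicates 1 and 3, at 0.284 (19 sites). These coefficients are across sites of the same libraries, which are not independent, and are given as a description.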

How the data were processed

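The labels list 3 HuR and 3 control immunoprecipitations from HEK293, grouped and numbered by title. The lists deposited by the authors give intervals with a LOD score: 1 list per HuR replicate, 1 combined and 1 combined list limited at p 0.05, per the file names. Per the submitters' processing notes, cutadapt 1.0, TopHat2 2.0.8 and hg19 (GRCh37) were used; for the making of intervals and scores, the method was not given in the sources used here. All scores were above 0 and intervals ended on a 5 nt grid.

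Same-strand intervals overlapping each span by at least 1 nt were counted with Python 3.11.15, using scipy 1.17.1, pandas 2.3.3 and numpy 2.4.6. Where several replicate sites overlapped a combined site, the one sharing the most bases gave the score. Coordinates are 1-based. The interval code was tested on simulated lists. Wilson intervals cover counting error only. Alternatives were LOD above 1 and above 2, equal list sizes, 50% reciprocal overlap, midpoint assignment, other end windows and leaving out each replicate.

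The genes, lists and measures were chosen with earlier results of these data known. Sites were named by rule: in each gene the 5 highest combined scores found in all 3 replicates, the 3 highest others, the widest, the highest in the last 5 kb and the densest kilobase; not all are printed. The 15 kb end window, score classes and transcript letters were added after values were seen. A further list of Wnt pathway genes and the sequence under the sites were not analysed here, because the reference at hand is on GRCh38. Its coordinates were not set beside the hg19 sites.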

Additional observations from a re-analysis of the deposited data

How the results depend on the processing

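The 29 results were recomputed to give 181 alternative values. Of these, 133 stayed within the replicate SD or, where no SD exists, the 95% Wilson interval, and 48 moved. Reversals were not scored, and for the moves the cause was not tested. For sites per kb, end share, median percentile and strand share, a mean without 1 replicate always lies within the replicate SD. Leaving out a replicate therefore could not move those results. By bases in all lists used, APC stood above TCF7L2 without replicate 1, at 2.51% against 1.97%, and below it otherwise. The Wilson interval over bases treats neighbouring bases as independent and is narrow. The gene order by mean sites per kb was the same under LOD above 1 and above 2, equal list sizes and leaving out each replicate. Bases in all 3 replicates (LRP6, APC, CTNNB1 and TCF7L2, in this order throughout) made up 1.37%, 0.501%, 2.11% and 0.855% of the span at LOD above 2, and 0.868%, 0.249%, 1.91% and 0.621% with equal list sizes; at LOD above 1 they were 0.501% in APC and 2.38% in CTNNB1. Leaving out a replicate gave 1.54% to 5.07%, 0.595% to 2.51%, 2.71% to 8.52% and 0.911% to 1.97%. Sites in all 3 replicates were 11.5%, 5.84%, 11.8% and 13.1% with equal list sizes (13.1% of all combined sites), and 34.5%, 27.3%, 33.3% and 38.8% in the p-filtered list (42.5% of all). With 50% of each interval shared they were 11.1%, 8.44%, 14.0% and 16.1% (13.4% of all), and the p filter kept 40.7%, 35.7%, 44.1% and 48.2% (41.7% of all), so the APC intervals then held the values of all sites. Leaving out a replicate gave 22.6% to 54.9%, 12.3% to 42.9%, 21.5% to 61.3% and 21.9% to 46.0%, and for both measures the highest value in each gene was without replicate 1. The share of called bases in the end window moved, by construction, to 38.0%, 26.7% and 61.2% in the last 10% of LRP6, APC and TCF7L2, to 38.0%, 30.7%, 46.1% and 54.5% in the last 15 kb, and to 11.1% in the last 2 kb of LRP6. With equal list sizes LRP6 had 0.398 sites per kb, and 99.1% of TCF7L2 sites lay on its strand; at LOD above 1 the median percentile of APC sites was 44.0. The mean correlation of 0.669 was 0.565 at LOD above 2 and 0.605 to 0.706 leaving out a replicate. No paired analysis was possible because only HuR immunoprecipitations have values here, and a replicate number shared with a control could not be used. Unknown depth limits every statement on sites missing from a list.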

Other observations

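The transcripts of these genes differ in short U-rich and AU-rich letter runs. In the principal GENCODE transcript of each gene, read on the sense strand with overlapping matches counted, TTTTT occurred 14.7 times per kb in TCF7L2, 7.18 times in CTNNB1, 4.79 times in LRP6 and 2.34 times in APC. Over the principal transcripts of 19684 coding genes the median was 2.09 per kb and 81.5% held at least 1 match, which puts TCF7L2 at percentile 99.2, CTNNB1 at 88.4, LRP6 at 75.9 and APC at 52.8. ATTTA occurred 2.79 times per kb in LRP6, 1.48 in CTNNB1, 1.21 in APC and 1.05 in TCF7L2, against a median of 0.893 per kb, with a match in 75.1% of coding genes. LRP6 stood at percentile 90.6 for these letters and TCF7L2 at 55.2. The letters were counted over the whole spliced transcript and not under the HuR sites, so their place relative to the sites was not tested.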
